A study of Mus musculus with 16 samples.

Results

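Long noncoding RNA (lncRNA) genes held 13476 of the 962084 Ago2 regions of the deposited CLIP comparison, a share of 1.40%, spread over 1182 genes. A region was a stretch of the genome that the deposited summary lists with a single hidden state, and it was counted when it overlapped, on the same strand, the span of a gene annotated as lincRNA, antisense RNA, processed transcript, sense intronic or bidirectional promoter lncRNA. Regions that also overlapped a protein coding span on that strand were left out (3163 of 16673). Another 34 regions lay in Gm26917 and Gm42418, genes of the ribosomal RNA locus, and are given apart at the end. Of the 5687 lncRNA genes in the gene table, 20.8% had a region.

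The cells were B cells from the spleens of C57B6L/J mice, cultured over 4 days in aCD40 antibody at 500 ng/ml plus the cytokines IL4 at 25 ng/ml and IL21 at 10 ng/ml, which make B cells divide and mature. KO cells lacked the microRNAs miR-221 and miR-222, which the series title names as its subject, and Flox cells carried the floxed locus and served as controls. There were 4 RNA-seq libraries of each genotype, and 4 of Ago2 HITS-CLIP; the age of the mice and the Cre line behind the deletion are not given in the sources used here. The CLIP comparison pools the replicates of each of 2 conditions without naming them, so CLIP values carry no error between replicates and CLIP differences are left without a genotype.

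Ago2 is the protein that holds a microRNA and brings it to RNAs that pair with its seed, and HITS-CLIP sequences the RNA fragments crosslinked to Ago2 by ultraviolet light. Many lncRNAs stay in the nucleus, and others act in the cytoplasm, where some bind microRNAs. Several are known mainly as hosts: their introns are cut to release small nucleolar RNAs (snoRNAs), which guide the modification of ribosomal RNA, or their transcripts are cut into microRNA hairpins.

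The microRNAs with hairpins in or beside lncRNA genes with Ago2 regions are shown first. The reason is that the regions lay beside the mature arms and not on them. The mature sequences below are from RefSeq (GRCm38.p6), 5′ to 3′, with the seed (bases 2 to 8) in capitals. miR-15a-5p and miR-16-5p, from Dleu2, share a seed, and miR-17-5p and miR-20a-5p, from Mir17hg, share another. let-7d-5p, from 6720427I07Rik, shares its seed with let-7f-5p, whose hairpin (Mirlet7f-1) lies just 5′ of the annotated span of that gene. miR-142a-3p and miR-155-5p come from Mir142hg and Mir155hg. miR-221-3p and miR-222-3p, the microRNAs absent in KO cells, share a seed that none of these has.
miR-15a-5p: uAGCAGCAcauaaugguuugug
miR-16-5p: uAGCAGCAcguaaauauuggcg
miR-17-5p: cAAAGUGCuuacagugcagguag
miR-20a-5p: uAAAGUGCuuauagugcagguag
let-7d-5p: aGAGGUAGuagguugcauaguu
let-7f-5p: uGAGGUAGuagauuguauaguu
miR-142a-3p: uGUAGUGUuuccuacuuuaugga
miR-155-5p: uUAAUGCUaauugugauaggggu
miR-221-3p: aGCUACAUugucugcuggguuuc
miR-222-3p: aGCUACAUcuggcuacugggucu

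The hairpins below are printed 5′ to 3′, with the bases covered by one of the lncRNA regions counted here in capitals. The 5′ end of the Mirlet7f-1 hairpin lies outside the gene span and stays in lower case, although its 5′ flank reached 60 tag-nt. In each hairpin the capitals stop within a few bases of a mature arm. The arms are in lower case apart from a few bases at an end.
Mir16-1 hairpin: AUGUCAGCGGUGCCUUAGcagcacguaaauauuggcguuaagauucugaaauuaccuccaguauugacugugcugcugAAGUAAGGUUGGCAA
Mir17 hairpin: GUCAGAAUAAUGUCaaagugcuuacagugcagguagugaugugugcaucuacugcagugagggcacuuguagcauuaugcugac
Mir20a hairpin: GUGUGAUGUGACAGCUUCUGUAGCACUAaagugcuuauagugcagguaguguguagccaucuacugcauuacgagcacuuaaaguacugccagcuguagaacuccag
Mir92-1 hairpin: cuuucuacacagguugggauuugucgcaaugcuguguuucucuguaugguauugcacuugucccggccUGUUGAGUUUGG
Mir142 hairpin: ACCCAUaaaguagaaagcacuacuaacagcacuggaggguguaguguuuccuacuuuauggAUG
Mir155 hairpin: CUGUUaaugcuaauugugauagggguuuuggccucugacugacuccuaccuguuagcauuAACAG
Mirlet7d hairpin: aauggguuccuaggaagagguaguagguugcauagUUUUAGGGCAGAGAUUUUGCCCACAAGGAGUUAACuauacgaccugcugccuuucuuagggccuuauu
Mirlet7f-1 hairpin: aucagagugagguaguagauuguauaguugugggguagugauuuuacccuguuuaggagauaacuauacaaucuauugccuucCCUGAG

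Across these 1182 genes, 51 microRNA hairpins lay in or, like Mirlet7f-1, beside a host with a region. Of these hairpins, 18 had tags within 60 nt of the arms or in the loop. A tag is a sequenced CLIP fragment. Coverage is given in tag-nucleotides (tag-nt) per bin of 5 nt, summed over both conditions, so a tag that spans a bin adds 5. No bin lying wholly inside a mature arm held a tag in any of the 51 hairpins. In Dleu2, an lncRNA gene that also hosts miR-15a and miR-16-1, the bins 5′ of the Mir16-1 arms reached 332 tag-nt and those 3′ of them 435. The bins 5′ of Mir15a reached 180 and those 3′ of it 308. Tags stood on both sides of both hairpins, but the 332 and the 308 tag-nt belong to the same region. It lies between the adjacent hairpins (chromosome 14, 61631955 to 61632019).

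In Mir17hg, the host of the miR-17 to miR-92a cluster, tags lay 5′ of Mir17 (57 tag-nt) and of Mir20a (139 tag-nt) and 3′ of Mir92-1 (117 tag-nt). Mir155, in the host gene that activated B cells induce, had 146 tag-nt 5′ and 15 tag-nt 3′ of its arms. Mir142, made in blood cells, had 155 tag-nt 5′ and 70 tag-nt 3′. The let-7d hairpin alone among these had its tags in the loop, 210 tag-nt at the highest bin, and 0 within 60 nt 5′ of its arms. In 12 of the 18 hairpins a region edge lay within 3 nt of an arm end, and in the other 6, among them Mir19a, Mir421 and Mir425, the nearest edge was 4 to 46 nt away. Over all 1058 microRNA genes of the reference table, 191 had tags beside the arms and 12 had tags inside an arm, so the empty arms were not particular to lncRNA hosts. Whether fragments of mature microRNAs were removed before the comparison was not tested.

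**Figure D1:**
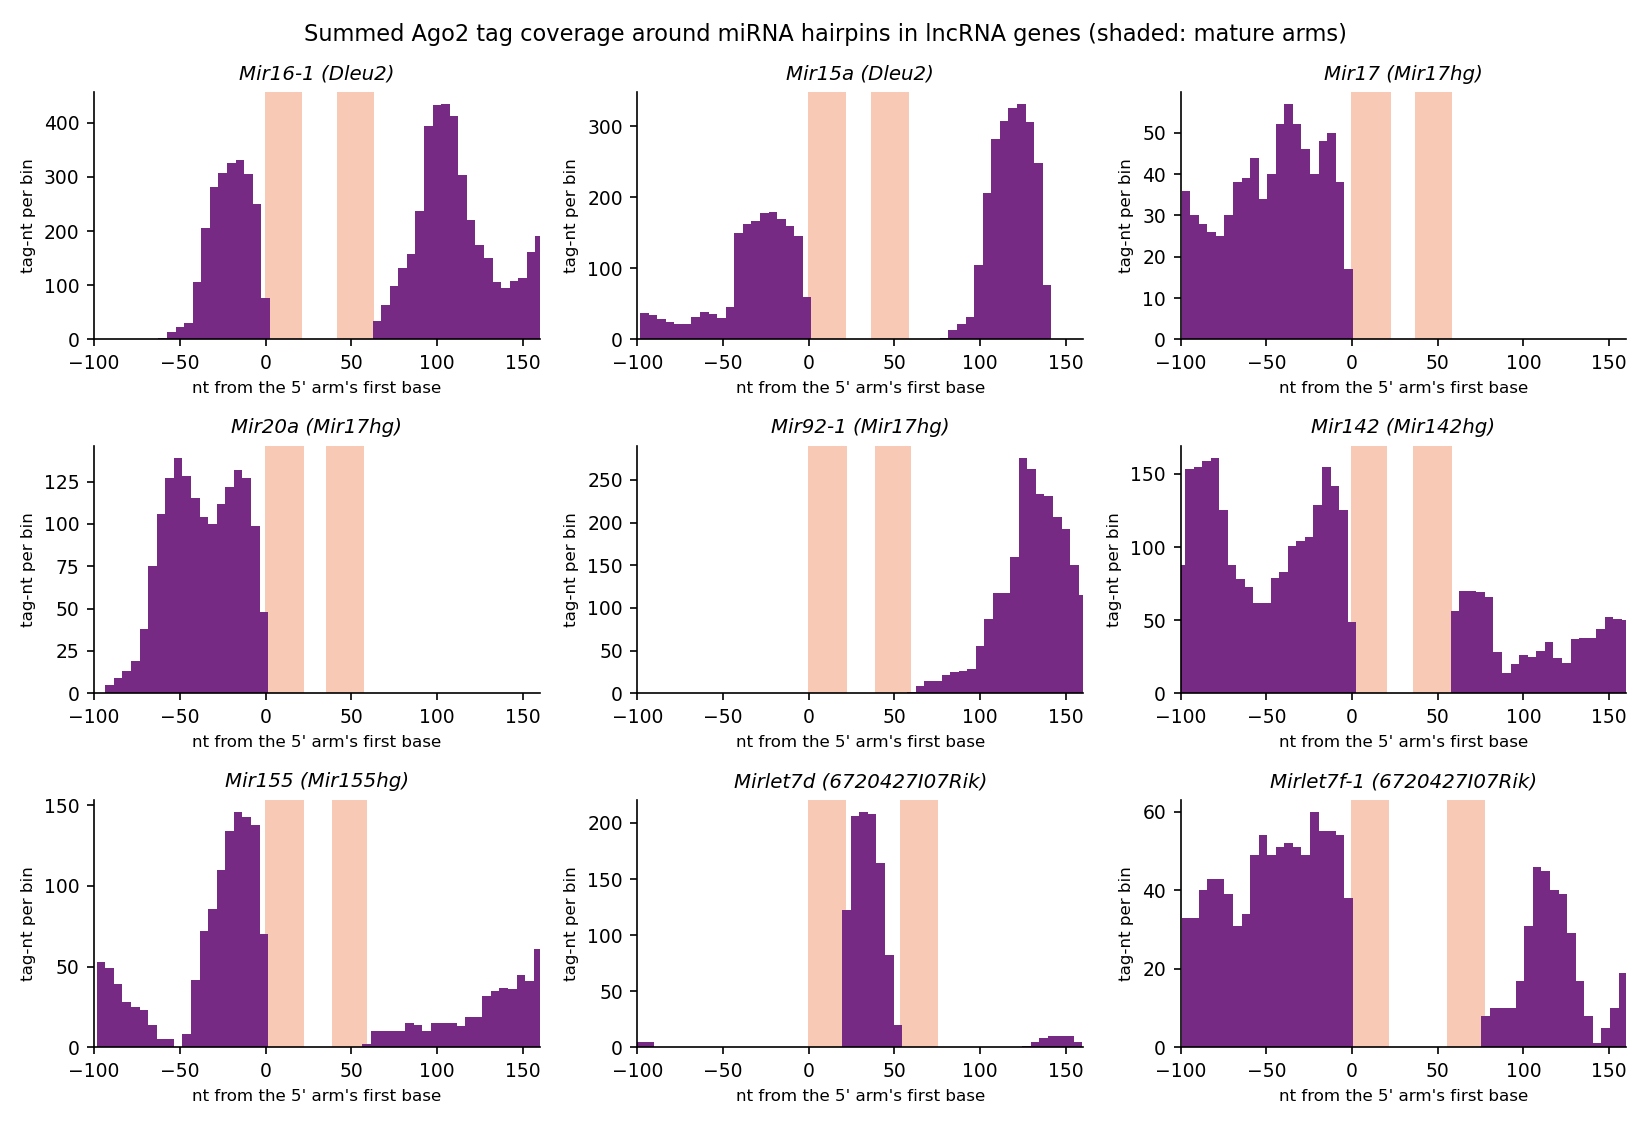
Summed Ago2 coverage in tag-nt per 5-nt bin (y axis, scales differ) against distance in nt from the first base of the 5′ mature arm (x axis) for 9 hairpins, with the mature arms shaded. Bars stand on 1 or both sides of the arms, at up to 435 tag-nt 3′ of Mir16-1, and in the loop of Mirlet7d, while the arms are empty but for bins that straddle an arm end.

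Most lncRNA regions were low and narrow. The highest bin of a region, its peak, had a median of 30 tag-nt (quartiles 18 and 54), against a median of 26 tag-nt in the 813620 regions of protein coding spans. The median width was 50 nt, against 55 nt in protein coding spans. Tall regions, with a peak of at least 500 tag-nt, made up 1.80% of lncRNA regions and 0.680% of protein coding regions. Few genes held most of the tall lncRNA regions. Of 242 such regions, 133 lay in 15 genes with a mean of at least 1000 normalized counts in RNA-seq. The authors' summary score had a median of 0.0 in both sets, since it is 0 in state 1, and reached 5 in 13.4% of lncRNA regions and 10.7% of protein coding ones. With no replicate values these are descriptions of the pooled data.

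By annotation, 540 of 2842 lincRNA genes, 388 of 1993 antisense genes and 231 of 641 processed transcript genes had a region. So did 22 of 63 bidirectional promoter genes and 1 of 148 sense intronic genes. The shares were 36.0% of processed transcript and 34.9% of bidirectional promoter genes, against 19% of lincRNA, 19.5% of antisense and 0.676% of sense intronic genes. A region was more often found in genes with more RNA. Of 3385 lncRNA genes listed at 0 in all 8 RNA-seq libraries, 14.9% had a region, against 78.9% of the 180 genes with a mean of 100 to under 1000 normalized counts and 92.6% of the 27 genes above that. Along genes of at least 2000 nt, 25.7% of lncRNA regions lay in the 20% of the span nearest the annotated 5′ end and 14.5% in the 20% nearest the 3′ end. In protein coding genes these shares were 22.4% and 24.4%. Both are shares of regions, to which genes with many regions add most, and position was not summarized per gene. Within 1000 nt of the annotated 3′ end lay 7.0% of lncRNA regions and 7.53% of protein coding regions.

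A few genes held much of the set. The 10 genes with the most regions held 37.9% of all regions, while 520 genes had a single region and the median was 2.0. Pvt1, the neighbour of Myc on chromosome 15 (GRCm38, 62037986 to 62378096), had 1634 regions with a median peak of 25.0 tag-nt. None of them lay on a snoRNA, snRNA, tRNA or microRNA gene. Lncpint, a p53-induced lncRNA, had 649 regions although the RNA-seq table listed it at 0.0 to 7.8 normalized counts in KO libraries and 2.3 to 5.2 in Flox libraries. Zswim6, a processed transcript row that RefSeq lists as protein coding, had 629 regions. Kcnq1ot1, the antisense RNA of the Kcnq1 imprinted domain, had 336, Morrbid (Gm14005), an RNA known to control the survival of myeloid cells, 333, and Dleu2, 324. In these long genes the regions were many and low.

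Coverage was distributed differently. The 10 genes with the most held 45.2% of the summed coverage of all lncRNA regions, and Malat1 alone held 13.8%. Malat1, an abundant RNA of nuclear speckles (chromosome 19, 5795690 to 5802672, minus strand), had 90 regions that covered 98.8% of its span, a median peak of 794 tag-nt and a highest peak of 6062. Its coverage was densest from 1.5 to 5.7 kb from the 5′ end, a stretch that held 81.9% of it. Neat1, the scaffold RNA of nuclear paraspeckles, was covered over 99.1% of its span by 306 regions. Its first 3.2 kb averaged 270 tag-nt per bin, against 59.4 over the remaining part up to 20.8 kb, and the mouse gene is known to make a short and a long isoform from the same start. These stretches were chosen after their values were seen.

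1700020I14Rik, the mouse Oip5os1 or Cyrano RNA, which is known for a highly complementary site for miR-7, had its coverage in a narrow tower. A stretch from 7.5 to 8.2 kb of its 13.2 kb held 42.4% of its coverage, and its highest region (chromosome 2, 119602025 to 119602084, plus strand) peaked at 3873 tag-nt. Norad (2900097C17Rik), a cytoplasmic RNA that binds Pumilio proteins, was covered along its whole length by 74 regions, with a highest peak of 3532 tag-nt. Its RNA averaged 128.9 normalized counts in KO libraries and 169.5 in Flox libraries. Tug1, a lncRNA found in nucleus and cytoplasm, had 103 regions up to 424 tag-nt. AU020206 had 157 regions up to 552 tag-nt over 90.3% of its span.

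**Figure D2:**
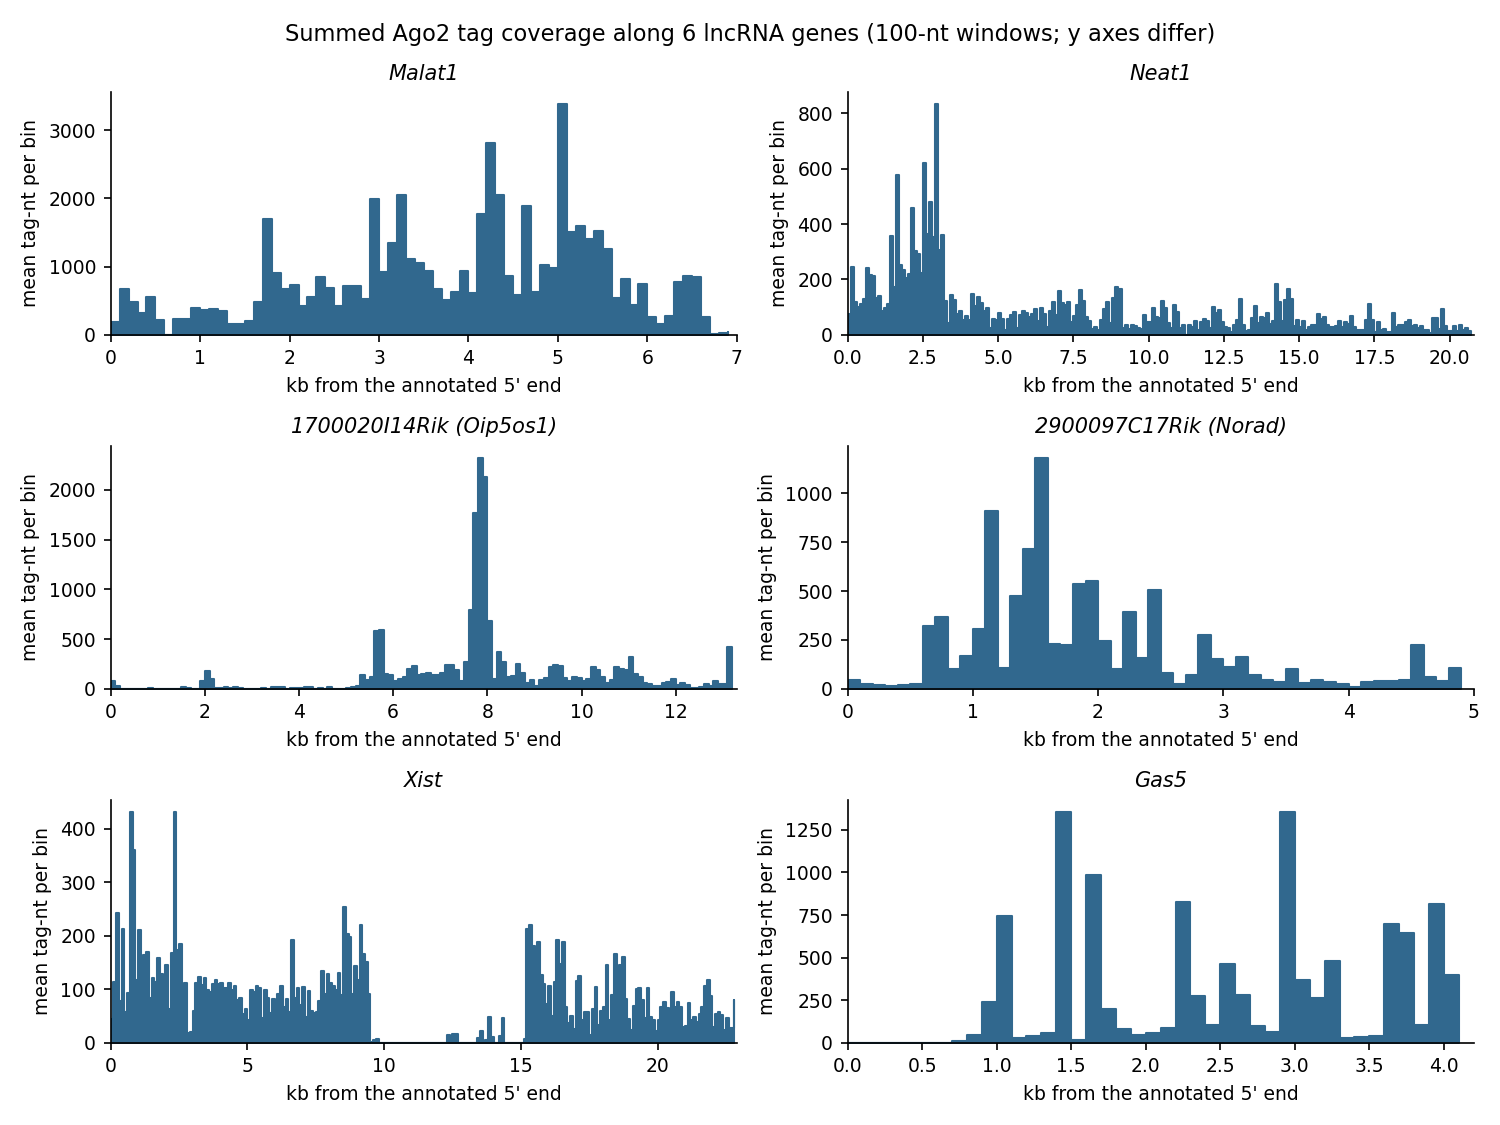
Mean summed Ago2 coverage in tag-nt per 5-nt bin, in 100-nt windows (y axis, scales differ) against distance in kb from the annotated 5′ end (x axis) of 6 lncRNA genes. Malat1 is covered throughout, Neat1 is highest in its first 3.2 kb, 1700020I14Rik has a tower between 7.5 and 8.2 kb, Xist has an empty middle, and Gas5 has separate blocks.

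**Figure D3:**
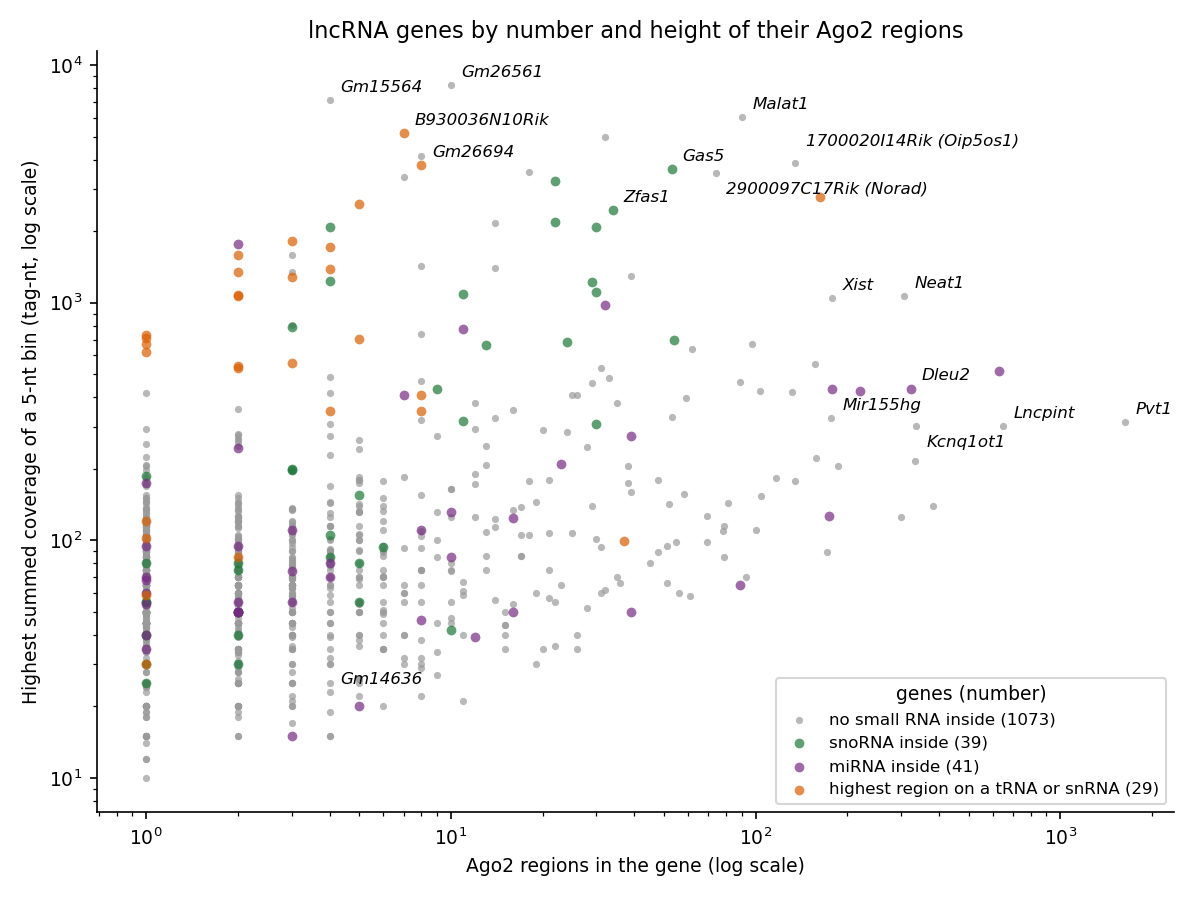
Number of Ago2 regions (x axis, log scale) and highest summed coverage of a 5-nt bin in tag-nt (y axis, log scale) of 1182 lncRNA genes, each a point, coloured by the small RNA genes inside. Pvt1 lies at the right with low peaks, Malat1 and Oip5os1 combine many regions with tall ones, and 29 genes whose highest region lies on a tRNA or snRNA gene have a median highest peak of 705 tag-nt with a median of 2.0 regions.

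Regions on small RNA genes were few and tall. Only 174 lncRNA regions (1.29%) overlapped a snoRNA, snRNA, tRNA or microRNA gene of RefSeq or the gene table, yet they held 12.7% of the coverage. RefSeq genes, the only source of tRNA genes, were matched without regard to strand, so a region on one may be antisense to it. The 84 regions on snoRNA genes had a median peak of 549 tag-nt, the 30 on snRNA genes 537, and the 32 on tRNA genes 609, against 30 for the 13302 regions on none of these. The 28 regions on microRNA hairpins had a median of 75.5. Regions of protein coding spans on these kinds of gene also had higher medians than the 26 tag-nt of all protein coding regions. Their medians were 265 tag-nt in 576 regions on snoRNA genes and 135 in 281 on snRNA genes. They were 1948 in 36 regions on tRNA genes and 66 in 281 on microRNA hairpins. In protein coding spans regions on small RNA genes made up 0.144% of regions and 1.63% of coverage.

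**Figure D4:**
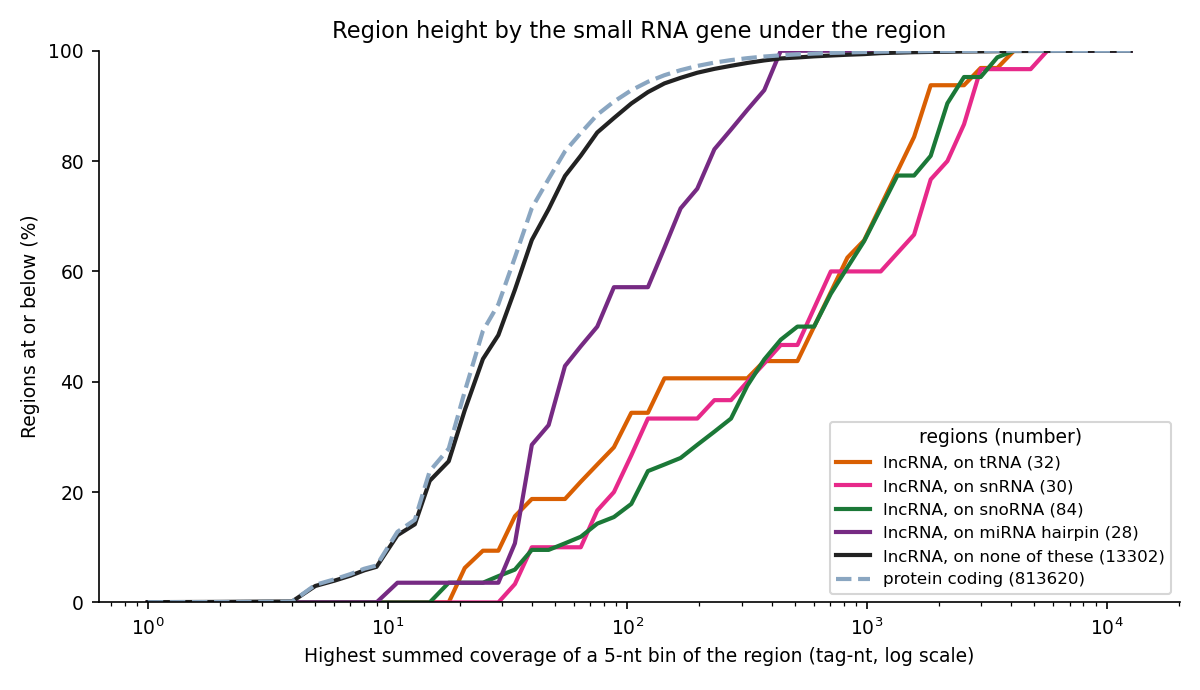
Share of regions (y axis, percent) with a peak at or below the summed coverage in tag-nt on the x axis (log scale), by the small RNA gene the region overlaps, with protein coding regions dashed. The curves for tRNA, snRNA and snoRNA genes cross 50% at 537 to 609 tag-nt, those for lncRNA regions on none of these and for protein coding regions at 30 and 26.

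Regions on snoRNA genes were the most numerous of these. Gas5 (chromosome 1, 161034422 to 161038539, plus strand) holds 9 genes within its annotated span that the gene table lists as snoRNAs. Among the 9 is Mir5117, a gene with a microRNA's name, and the tallest Gas5 region, at 3661 tag-nt, lay on it. Gas5 had 53 regions, and 86.7% of its coverage lay in the 14 regions on snoRNA genes. 2410006H16Rik, which holds Snord49b, had 90.1% of its coverage in 5 such regions, and its highest region (chromosome 11, 62603075 to 62603129) peaked at 3243. Zfas1, a host of 3 snoRNAs, had 85.3% of its coverage in 7 such regions, and Snhg12, a host of 4, 88.6% in 9. Other snoRNA hosts had less, such as Dancr with 32.9%, Snhg15 with 19.2% and Cct6a, which RefSeq lists as protein coding, with 12.3%. Over all 39 hosts with a snoRNA gene inside, 17 had at least 50% of their coverage in regions that overlapped a snoRNA gene. Another 15 had no region on one. A region that overlapped a snoRNA gene by at least 1 nt was counted in full, also where it reached beyond the gene. The shares describe where Ago2-crosslinked fragments lay and do not tell the snoRNA from its host intron.

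Tall regions in genes with little RNA were a separate group. Of 242 tall regions, 71 lay in hosts with a mean under 10 normalized counts, and 25 of these, 17 on tRNA and 8 on snRNA genes, overlapped a small RNA gene. Gm26694 had 1 region on the tRNA gene n-TGccc7 that peaked at 3799 tag-nt and held 87.0% of the gene's coverage, with RNA at 0.0 in each KO library and 0.0 to 1.7 in Flox libraries. B930036N10Rik peaked at 5159 tag-nt on an snRNA gene (chromosome 1, 171503040 to 171503119). The tallest lncRNA region of all, in Gm26561 (chromosome 17, 70963670 to 70963889, plus strand), reached 8225 tag-nt in a 515 kb gene span. RNA of Gm26561 was 0.0 to 4.6 normalized counts in KO libraries and 0.0 to 1.2 in Flox libraries. No snoRNA, snRNA, tRNA or microRNA gene overlapped the region, and other kinds of small RNA gene were not looked for. Nor did a gene of the kinds looked for overlap the tallest region of 9330185C12Rik, with 4141 tag-nt and 0.0 normalized counts in all 8 libraries. Tall regions also lay in genes with more RNA. The 3 tallest regions of Gm15564 peaked at 6698 to 7123 tag-nt, on no gene of the kinds looked for. Its RNA was 76.3 to 710.3 normalized counts in KO libraries and 462.8 to 2108.6 in Flox libraries. D230017M19Rik had 84.6% of its coverage in 9 regions on small RNA genes, the tallest of them on an snRNA gene. Its RNA averaged 209 normalized counts in KO and 200.1 in Flox libraries.

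The hidden state of the authors' comparison separated some genes from others. Bins have a negative difference in state 0 and a positive one in state 2, while in state 1 the authors' score is 0. lncRNA regions were 33.3% state 0, 56.8% state 1 and 9.83% state 2, close to the 31.4%, 58.8% and 9.73% of protein coding regions. Regions on snoRNA genes were the other way round, 15.5% in state 0 and 27.4% in state 2, and so were those in protein coding genes, 12.5% and 26.9%. Of Malat1's 90 regions, 38.9% were in state 2 and 10.0% in state 0. Regions on microRNA hairpins were 42.9% in state 0 and 7.14% in state 2.

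Xist, the RNA that coats the inactive X chromosome of female cells (chromosome X, 103460375 to 103483217, minus strand) had Ago2 regions but next to no RNA-seq reads. It had 178 regions and a highest peak of 1043 tag-nt, while RNA-seq gave 0.0, 0.0, 9.2 and 1.5 normalized counts in KO 1 to 4, against 3.8, 2.6, 0.0 and 0.0 in Flox 1 to 4. Of its regions 69 (38.8%) were in state 2 and 16 (8.99%) in state 0, and 3 of the 5 lncRNA regions with the most positive mean difference were in Xist, up to 0.60. The Y-linked genes Ddx3y, Uty, Kdm5d and Eif2s3y, set beside it for this reason, went the other way: of their 165 CLIP regions 77 were in state 0 and 6 in state 2. In RNA-seq these 4 genes summed to 9865 to 11213 normalized counts in KO libraries and 11570 to 13086 in Flox libraries. The split of Xist between states was not particular to it. Malat1, an autosomal gene, had 38.9% of its regions in state 2 and 10.0% in state 0. Regions of the ribosomal RNA locus were 41.2% in state 2 and 8.82% in state 0. The share of female cells in either CLIP condition was not tested, and a difference between the CLIP conditions in sex and in genotype cannot be told apart here.

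The most negative differences among regions with a score of at least 5 were in Rbm46os (-0.61), C330002G04Rik (-0.56), 4930556N13Rik, Gm15892 and Neat1 (-0.53 each). Besides Xist, the most positive were in 9430037G07Rik, on a snoRNA gene (0.60), and in 4632427E13Rik (0.53). The 10 highest scores included Gm26561 (374.5), Gm15564 (366.5), 1700020I14Rik (211.2) and a Malat1 region (201.7). Their signs were not the same: the first 3 were negative, and Malat1, Zfas1 and 2410006H16Rik were positive.

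RNA-seq asked which of the host genes differ between KO and Flox cells. KO libraries held 22947689 to 39236132 reads, and Flox libraries 25421025 to 39616596. On principal component 1 (33.5% of variance), KO 1 to 4 lay at -38.0, -15.3, -35.6 and 7.5. Flox libraries lay at 14.5 to 26.5, so the genotypes did not overlap, with KO 1 and KO 3 farthest from Flox. All 8 B cell markers were present, as were 3 of 5 macrophage and monocyte markers (Adgre1, Cd68 and Lyz2), whose list summed to 348 to 534 in KO libraries and 323 to 461 in Flox libraries, and no T cell, neutrophil, erythroid or platelet marker reached a mean of 10. The dendritic cell list summed to 2107 to 2694 in KO libraries and 2703 to 3105 in Flox libraries, the NK list to 158 to 206 in KO and 93.9 to 138 in Flox, and the stroma list to 718 to 849 in KO and 503 to 658 in Flox. Each of the dendritic, NK and stroma sums rested on 1 gene with a mean of at least 10, Flt3, Prf1 and Pecam1, while Ncr1 and Col3a1 were at 0, and the part of these cells in the results below was not tested. In bulk RNA, fewer cells of a type and less RNA per cell cannot be told apart. Nothing states that libraries came from separate mice, so p-values measure only the spread between these samples.

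Of 328 host genes tested, 1 passed an adjusted p of 0.05 (limma-trend, Benjamini-Hochberg over all genes), against 0.0687% of the 13091 genes tested. That gene was Gm14636, a processed transcript on the minus strand of chromosome X (19156981 to 19167241) close to the deleted microRNAs. It had 304.4, 286.9, 275.2 and 188.0 normalized counts in KO 1 to 4, against 0.8, 1.7, 1.2 and 3.1 in Flox 1 to 4. The groups were far apart, at a log2 fold change of 6.66 (SE 0.33) and a limma adjusted p of 2.29e-06, on the scale of log2 of the value plus 1, as all fold changes here. Its 4 Ago2 regions were low, at most 23 tag-nt, and 3 of them were in state 0. DESeq2 called 5 host genes, against 199 of all 13087 genes (1.52%), a share close to that of the hosts. In the authors' deposited results 191 genes passed over all genes, and 4 of them were host genes. The host genes called in both included 2610035D17Rik, 2410006H16Rik and Snhg5.

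At an unadjusted p of 0.05, 54 of 328 host genes differed, 17 higher and 37 lower in KO. Over all genes 15.1% were under that p, 7.39% lower and 7.74% higher, so the hosts' 11.3% lower and 5.18% higher stood near the background in total. KO and Flox libraries did not overlap in 21 hosts (6.40%), against 7.97% of all genes.

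Most snoRNA hosts had lower mean values in KO cells, and none passed the adjusted threshold with limma. Of 23 tested hosts with a snoRNA gene of the gene table inside, 17 were on the negative side; their median log2 fold change was -0.27, against -0.01 over all genes tested. At an unadjusted p of 0.05, 9 were lower and 1 higher in KO, 39.1% lower against 7.39% of all genes, and 0 of 23 passed the adjusted threshold with limma, while DESeq2 called 2410006H16Rik and Snhg5. Without KO 1 and KO 3 the count of negative values was 14 of 23, and 5 were lower at that p. Corrected for GC content and gene span, it was 15 of 23 with a median of -0.11. The median was -0.17 without KO 3, -0.16 without KO 1 and KO 3, -0.15 with edgeR, -0.14 with DESeq2 and -0.12 with a pseudocount of 10. RefSeq lists Cct6a and Gm15832, both among these hosts, as protein coding. 2900076A07Rik is among them only through Mir1839, a gene with a microRNA's name that the gene table lists as a snoRNA. Of the 23 hosts, 18 had spans among the shortest 20% of genes tested. That 20% had a median log2 fold change of -0.13, and the 20% with the longest spans 0.11.

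Gas5, whose RNA carries the tallest snoRNA regions, had 11330.8, 12762.9, 9568.8 and 12597.2 normalized counts in KO 1 to 4, against 13015.9, 15985.9, 14687.9 and 14062.8 in Flox 1 to 4. Every KO library was below every Flox library, at a log2 fold change of -0.33 (SE 0.11) and an adjusted p of 0.25 by limma. 2410006H16Rik had 5484.7, 5631.0, 3988.9 and 6352.0 in KO libraries, against 6879.8, 8113.8, 8002.2 and 9065.6 in Flox libraries. Again the groups did not overlap, at -0.59 (SE 0.14, limma adjusted p = 0.24). Zfas1 had 3723.7, 3942.2, 2260.4 and 4154.1 in KO libraries, against 4319.3, 5376.6, 5445.6 and 5277.2 in Flox libraries, -0.57 (SE 0.17) and also without overlap.

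Snhg5 was the steadiest of them, with 2411.0, 2456.9, 2441.9 and 2492.8 in KO libraries, against 2725.8, 3055.6, 2964.2 and 3108.6 in Flox libraries. The fold change was -0.27 on the log2 scale (SE 0.07; adjusted p = 0.24 by limma), and the groups did not overlap. Epb41l4aos, at 700 ± 177 in KO and 1030 ± 109 in Flox libraries (SD, n = 4 each), had a log2 fold change of -0.59 and no overlap either. Snhg6 (-0.46), Snhg15 (-0.54) and Snhg20 (-0.53) were lower on average but overlapped, as did Snhg12 (-0.11) and 1110038B12Rik (-0.32). 2700038G22Rik, with Snord93 inside, was the highest of the group at 0.47. It had 520.0, 457.7, 370.0 and 294.1 in KO libraries, against 327.6, 316.7, 217.7 and 312.0 in Flox libraries. KO 3 was the lowest of the 8 libraries in 13 of the 23 hosts, Gas5, 2410006H16Rik, Zfas1, Epb41l4aos, Snhg6, Snhg15, Snhg20 and 1110038B12Rik among them. Without it, the log2 fold change was -0.37 for Zfas1, -0.38 for Epb41l4aos, -0.29 for Snhg6, -0.31 for Snhg15, -0.33 for Snhg20 and -0.17 for 1110038B12Rik.

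**Figure D5:**
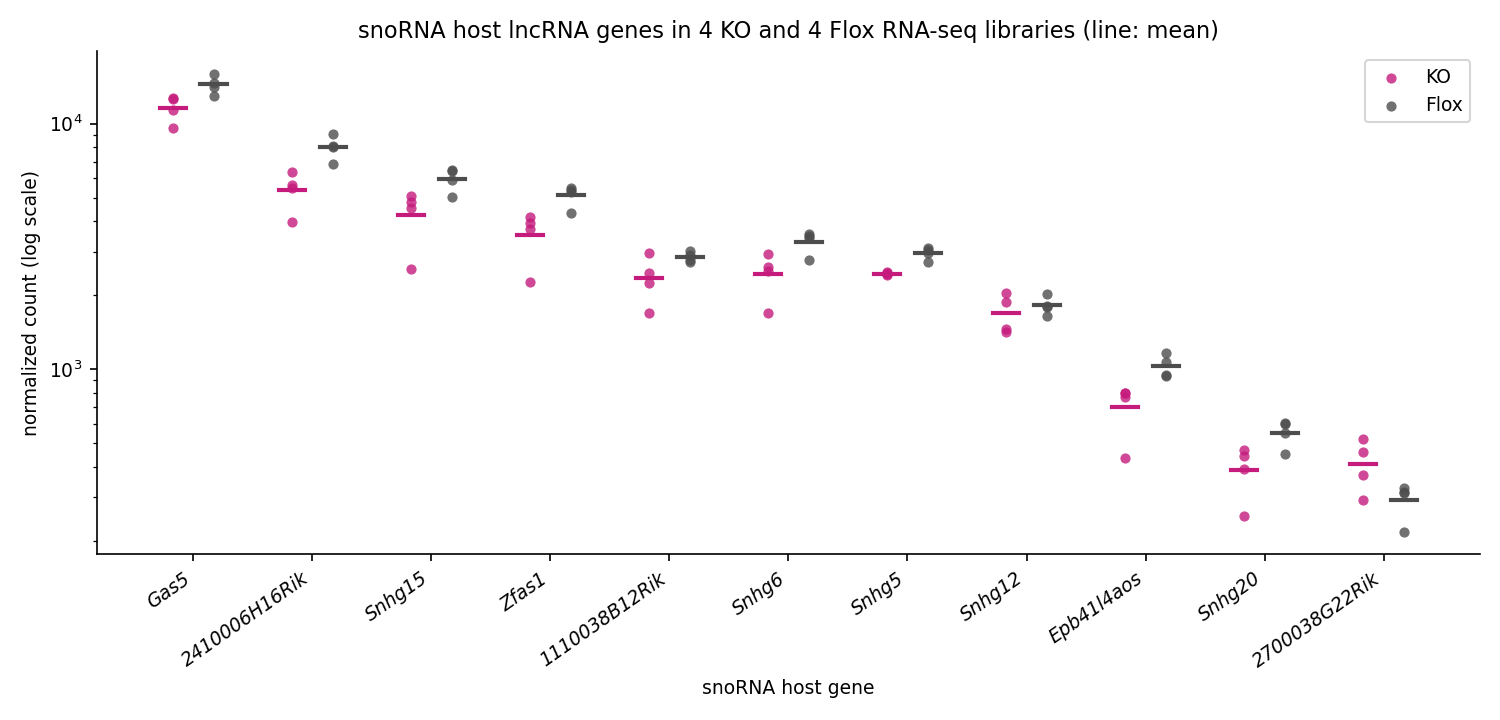
Normalized counts (y axis, log scale) of 11 snoRNA host lncRNA genes in the 4 KO libraries (left of each pair) and 4 Flox libraries (right), each point a library and each line a mean. The KO points of Gas5, 2410006H16Rik, Zfas1, Snhg5 and Epb41l4aos lie below all Flox points, and 2700038G22Rik is higher on average in KO.

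Among the hosts of the microRNAs printed above, Mir142hg had the largest difference. It had 659.6, 899.8, 267.1 and 1008.0 normalized counts in KO 1 to 4, against 1045.8, 1193.6, 1291.1 and 1230.4 in Flox 1 to 4. The groups did not overlap, but KO libraries spread widely, and the log2 fold change of -0.91 (SE 0.33) had a limma adjusted p of 0.27. Without KO 3 it was -0.49. 4833445I07Rik, which holds miR-191 and miR-425, was lower without overlap (-0.34, limma adjusted p = 0.27), and 6720427I07Rik, the let-7d host, likewise (-0.26). Dleu2 (-0.05), Mir17hg (-0.03) and Mir155hg (0.15) overlapped, and no difference was detectable in them with 4 libraries a group. Of 11 tested hosts with a microRNA gene of the gene table inside, 7 had a negative value, with a median of -0.03. At an unadjusted p of 0.05, 2 (18.2%) were lower and 2 (18.2%) higher in KO, against 7.39% lower and 7.74% higher over all genes. The higher ones were Gm15987 (0.45) and Gm37233 (1.01), which both overlapped. Mir142hg is not among the 11, since the gene table has no microRNA gene wholly inside its span.

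Malat1, the RNA with the most Ago2 coverage, overlapped between genotypes. It had 2563.2, 2406.0, 5523.2 and 3870.6 in KO libraries, against 2825.7, 3333.1, 2864.6 and 2978.5 in Flox libraries, 0.18 (SE 0.22). Its KO libraries spread from below to above all Flox libraries. Neat1 was at -0.29 (SE 0.23), 1700020I14Rik at -0.01 (SE 0.08), Tug1 at 0.24 (SE 0.12), AU020206 at 0.14 (SE 0.07) and Norad at -0.43 (SE 0.19), each with a limma adjusted p over 0.05. Of these, AU020206 alone had every KO library above every Flox library, at 2609 to 2996 in KO and 2470 to 2600 in Flox. AW112010, a transcript of activated immune cells, was at -0.35 (SE 0.12).

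Of the long genes with many low regions, 2610035D17Rik, a chromosome 11 lincRNA with 381 regions, had the smallest unadjusted limma p. It had 234.6, 217.8, 213.9 and 355.5 normalized counts in KO 1 to 4, against 328.3, 514.8, 541.9 and 537.2 in Flox 1 to 4. KO 4 lay above Flox 1, and the log2 fold change was -0.91 (SE 0.20) with a limma adjusted p of 0.24, while DESeq2 gave an adjusted p of 0.0070. Pvt1 was at -0.29 (SE 0.11) with overlapping libraries. Kcnq1ot1 was higher without overlap, at 244 ± 46.6 in KO and 184 ± 20.6 in Flox libraries (SD, n = 4 each), a log2 fold change of 0.40 (limma adjusted p = 0.30). Gm15987 was at 0.45, with overlap. Gm15564 was at -1.68 with overlap (limma adjusted p = 0.30), and at -0.98 without KO 3, its lowest library.

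Other hosts without overlap at an unadjusted p of 0.05 were 2010007H06Rik (0.42), 1110002L01Rik (0.34), the processed transcript row of Crybg3 that RefSeq lists as protein coding (0.83), and Gm15743 (-0.70). Of the 5 lists drawn from the literature, the snoRNA host list had the largest share lower in KO. At an unadjusted p of 0.05 it had 0 of 12 tested members higher and 7 lower, 58.3% lower against 7.39% of all genes. The median log2 fold change of this list was -0.32. All 12 are among the 23 tested snoRNA hosts above, so the list gives no separate result and has the same limits. The nuclear and chromatin list had 1 of 10 tested members higher and 1 lower at that p, the list of RNAs that bind microRNAs or act in the cytoplasm 0 of 8 higher and 2 lower, and the lymphocyte and macrophage list 0 of 9 higher and 2 lower. The microRNA host list had 0 of 5 higher and 1 lower. Over all genes 7.74% were higher and 7.39% lower at that p. No member of the 5 lists passed the adjusted threshold with limma.

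The ribosomal RNA locus stood apart. Gm26917 (chromosome 17, 39843013 to 39846341) had 24 regions up to 8460 tag-nt and Gm42418 (39846958 to 39848788) 10 regions up to 10255. These 34 regions alone held 39.6% of the coverage of all lncRNA regions with them included, and 41.2% were in state 2. RNA differed by a log2 fold change of -0.13 (SE 0.24) for Gm26917 and 0.06 (SE 0.19) for Gm42418, with limma adjusted p of 0.81 and 0.90.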

How the data were processed

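The deposited RNA-seq values are a signal, normalized gene counts per the file headers. Each library's values were whole multiples of 1 step, so whole reads were recovered (100% of values within 0.1 read). A further 8 columns of stabilized values per library were not used. The submitters' processing notes list STAR, Bowtie2, cutadapt, SAMtools, DESeq and DESeq2 without roles. The deposited table also gives log2 fold changes, p-values with FDR, and the percent GC of each gene. The dCLIP output, per the file headers, gives for each 5-nt bin a hidden state, a difference score and the tags of 2 unnamed conditions. The tag columns hold coverage added over the 5 nt of a bin: bins equal to both neighbours were multiples of 5 in 99.7% and 99.8% of cases, against 25.9% and 23.7% of bins unlike both. Only the sum of both columns was used here. Runs of 1 state matched all 962700 regions of the authors' deposited summary (100%), whose score column has no header. A total of 616 regions were dropped because they lay on unplaced contigs or, except on M and Y, ahead of position 3000000. The labels name mm9, but the positions are those of GRCm38: 866 of 869 microRNA genes lay within 5 nt of their RefSeq GRCm38.p6 position at both ends. Overlaps (bedtools 2.31.1) needed 1 nt, on the same strand except for RefSeq small RNA genes, which were matched without regard to strand. There were 162 regions with more than 1 host. RefSeq lists 26 hosts as protein coding, and 1006 regions had only such hosts.

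limma-trend 3.58.1 was run on log2 of the value plus 1 for genes with a mean of at least 10, KO minus Flox, two-sided, with a Benjamini-Hochberg threshold of 0.05. It was tested on simulated data. edgeR 4.0.16 and DESeq2 1.42.0 on the recovered reads, other filters and pseudocounts, and fewer libraries were alternatives. Named genes were hosts past the threshold, the 10 with the most regions, the hosts of the 10 highest scores, up to 8 per direction without overlap, and members of 5 lists with a region (58 in all, 48 tested), and those given beside them were added after their values were seen. Members and lists were chosen with earlier results of these data known. Seed matches in the regions were not analysed here, as no genome was used, and exons and introns were not told apart.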

Additional observations from a re-analysis of the deposited data

Results flagged for a closer look

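In 68 groups of 4 libraries examined, 8 had a library far from the other 3 by Dixon's gap, where chance gives about 1 in 20. The highest KO library of 2610035D17Rik was KO 4, at 355.5 normalized counts, and its lowest Flox library was Flox 1, at 328.3. Flox 1 was also the low library of Zfas1, at 4319.3, and of Snhg6, at 2769.4. Flox 3 was the low library of 2700038G22Rik, at 217.7. KO 4 was the low library of Gm15987, at 496.4. KO 3 was the low library of Epb41l4aos, at 434.7, and the high library of Tug1, at 4838.7.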

How the results depend on the processing

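The limma-trend fit called 9 genes, of which 1 was an lncRNA host; DESeq2 called 199 and 5, and leaving out 1 library at a time gave 8 to 17 genes and 1 to 2 hosts (17 and 2 without KO 2). With the replicate block 11 genes and 1 host were called; the block was not used for the main values, since samples with the same number did not deviate together (correlations -0.09 to 0.00). The count of snoRNA hosts with a negative value was 14 to 20 over all alternatives. Of 577 fold changes of the 34 genes followed, 557 kept their sign and their side of the threshold, 3 passed it with DESeq2 only, and 17 changed sign in 6 genes that were not called. With 1 library left out, the log2 fold change was -0.049 to 0.027 for 1700020I14Rik, -0.16 to 0.072 for Mir17hg, -0.035 to 0.34 for Mir155hg, -0.056 to 0.34 for Malat1 and -0.11 to 0.016 for Dleu2. Without KO 1 and KO 3 it was 0.061 for 1700020I14Rik, 0.023 for Mir17hg and -0.23 for Mir155hg. With the span and GC correction it was 0.042 for 1700020I14Rik, 0.074 for Mir17hg and 0.0051 for Snhg12. The causes were not tested. A score of at least 5 left 1805 regions, with a median score of 8.0, a median peak of 85.0 tag-nt and 42.7%, 0.0% and 57.3% in states 0, 1 and 2, since the score is 0 in state 1. lincRNA genes alone had 7445 regions, 10.7% in state 2. A width of at least 20 nt gave 34.3%, 55.3% and 10.5%. The other choices of overlap, strand, distance and small RNA genes moved neither the count by over 1.5 times nor a median or share beyond its interval. The span and GC correction, leaving out hosts that RefSeq lists as protein coding, the median peak and the snoRNA host count were chosen after seeing the data. CLIP values have no replicate check.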
